A study of Rattus norvegicus with 4 samples.

Results

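The complement genes described here are C2, C3, Cfb, C1s, C1r, Serping1, Cd55 and Cd59, taken by gene symbol from the deposited expression table. Of the 8 symbols, 7 had a row, each with its own gene identifier, out of 14137 identifiers in the table. Cfb had no row under that symbol and is not analysed here. RNA was sequenced from neonatal rat ventricular myocytes on day 5 after infection with lentivirus; such cultures are made from newborn hearts and hold heart fibroblasts and other cells beside the muscle cells. In the Crat hairpin cultures (labelled KO) the virus carried a short hairpin RNA against Crat, the gene of carnitine acetyltransferase, and in the control cultures (labelled WT) it carried a control hairpin, so that all of them were infected and carried a hairpin. There were 2 libraries per group, and nothing in the labels says that they came from separate cultures, so p-values measure a spread that may be technical.

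Complement is a cascade of plasma and tissue proteins that tags cells and particles for clearance and can punch holes in membranes. In the classical pathway the recognition protein C1q carries the proteases C1r and C1s, which cut C4 and C2 to build the enzyme that cleaves C3, and factor B (Cfb) does the work of C2 in the alternative pathway. Serping1 encodes the C1 inhibitor, which inactivates C1r and C1s, while Cd55 and Cd59 are membrane proteins that protect the body's own cells, Cd55 by dismantling the C3-cleaving enzymes and Cd59 by blocking the membrane attack complex. The liver makes most plasma complement, and fibroblasts, macrophages and other cells of tissues make part of it locally; in the heart, complement is best known for its deposition in injured muscle after infarction.

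Among the members with a row, transcripts of the fluid-phase components all rose in the Crat hairpin libraries, by unequal amounts, and the membrane inhibitors went in opposite directions. C2 rose most, about 137-fold by group means, followed by Serping1 at 7.61-fold, C1r and C1s at 2.51-fold and 2.49-fold, and C3 at 2.08-fold. Cd55 rose 1.99-fold and Cd59 fell to 0.690 of its control level. By limma on log2 values with Benjamini-Hochberg adjustment over all genes, 6 of the 7 members passed at 0.05 as higher and 1 as lower, where 12.6% of the 12949 genes tested were higher and 6.36% lower. The members were chosen with earlier results of these data known, so their counts beside these shares are only a description. The groups did not overlap in any of the 7 members, a condition that 39.1% of genes met as higher and 21.7% as lower. The same 6 and 1 passed under median-of-ratios scaling, where 8.06% of genes were higher and 9.68% lower, and in edgeR on the recovered reads, where 22.6% were higher and 10.1% lower. In DESeq2, where 6.27% of 11944 genes were higher and 7.26% lower, all but Cd55 passed. Levels are in RPM, reads scaled to the library total, and all 7 stood above the minimum mean of 1 RPM in every library, so none entered the test through 1 group alone. With the authors' scaling the median log2 fold change of all genes was 0.15, and under median-of-ratios scaling it was -0.03. Relative to that median the members stood between -0.68 and 6.90 with the authors' scaling and between -0.69 and 6.89 with the other, and no member changed direction.

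**Figure D1:**
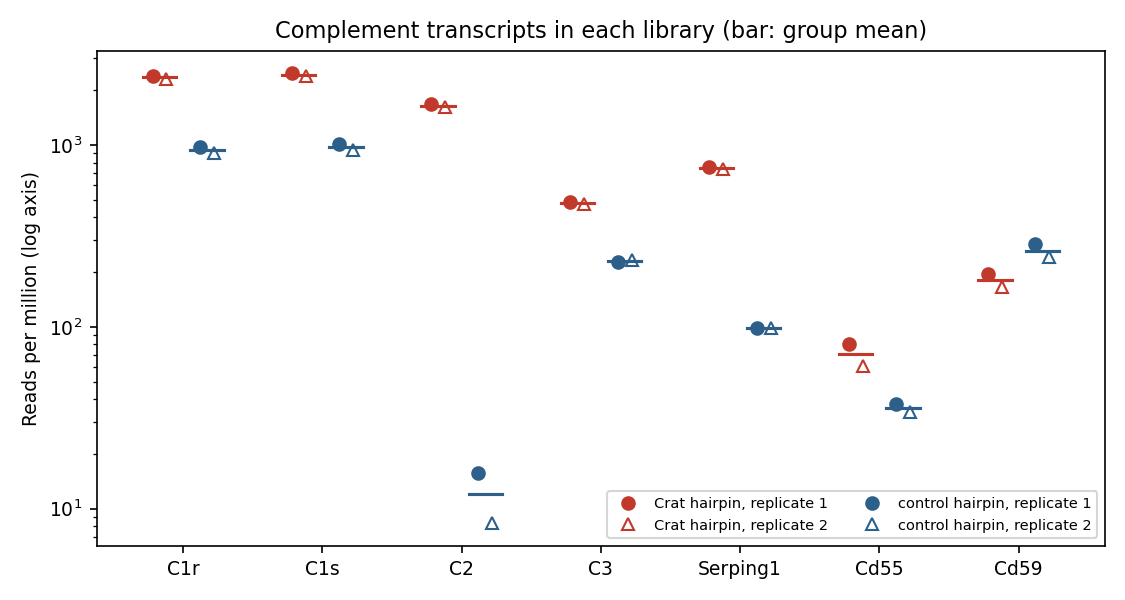
RPM (log axis) of the 7 complement members in each library, with Crat hairpin libraries in red on the left of each pair, control hairpin libraries in blue on the right, filled circles for replicate 1, open triangles for replicate 2 and a bar at the group mean. C2 sits at 1679.5 and 1608 RPM in the Crat hairpin libraries against 15.6 and 8.32 RPM in the controls, and Cd59 is the member whose Crat hairpin libraries lie below the controls.

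The libraries differed widely in depth. Reads counted on genes numbered 321516 and 1622998 in Crat hairpin replicates 1 and 2, against 23680064 and 1321735 in control replicates 1 and 2, so a single read was worth 3.11 and 0.616 RPM in the Crat hairpin libraries and 0.0422 and 0.757 RPM in the controls. Values are not divided by gene length, so levels are compared between libraries and never between genes. Crat itself stood at 24.9 and 19.7 RPM in the Crat hairpin libraries, against 148 and 156 RPM in the controls, a log2 fold change of -2.72 ± 0.19 (SE; limma adjusted p = 7.3e-06).

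The classical pathway begins with the C1 proteases. C1r (ENSRNOG00000011796), which activates itself and then C1s, had 2404 and 2315 RPM in the Crat hairpin libraries, against 977 and 907 RPM in the controls. C1s (ENSRNOG00000011971), which cuts C4 and C2, had 2479 and 2388 RPM in the Crat hairpin libraries, against 1016 and 941 RPM in the controls. Both Crat hairpin libraries lay far above both controls, and the groups did not overlap for either gene. C1r averaged 2359.9 ± 62.8 RPM in the Crat hairpin libraries and 942 ± 49.1 RPM in the controls (SD, n = 2 each), on 773 reads or more per library. The log2 fold changes were 1.32 ± 0.05 for C1r and 1.31 ± 0.05 for C1s (SE, 2 libraries against 2; limma adjusted p = 2.1e-07 for each). The proteases moved in step. C1r made up 49.2% and 49.2% of the reads of the pair in the Crat hairpin libraries and 49.0% and 49.1% in the controls, and the 95% exact binomial intervals of all 4 libraries overlapped. Such a share is taken within a library and does not depend on how libraries were scaled; its interval covers counting error only. In the RefSeq annotation of the assembly GRCr8, C1r and C1s are neighbours on rat chromosome 4.

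By group means the C1 inhibitor rose more than the proteases it inactivates. Serping1 (ENSRNOG00000007457) had 753 and 741 RPM in the Crat hairpin libraries, against 98.0 and 98.4 RPM in the controls. The libraries within each group were close to each other. They averaged 747 ± 8.11 RPM with the Crat hairpin and 98.2 ± 0.271 RPM with the control hairpin (SD, n = 2 each). These SDs lie below counting error. The exact 95% Poisson intervals were 661 to 854 RPM in Crat hairpin replicate 1 (242 reads) and 82.2 to 117 RPM in control replicate 2 (130 reads). The log2 fold change was 2.92 ± 0.09 (SE; limma adjusted p = 2.8e-08), 1.60 above that of C1s on the log2 scale. Counted within each library, Serping1 gave 13.4% and 13.6% of the reads of Serping1, C1r and C1s together in the Crat hairpin libraries, and 4.69% and 5.05% in the controls. The lowest bound of the exact 95% intervals was 11.8% in the Crat hairpin libraries and the highest was 5.97% in the controls. An exact permutation test of 2 libraries against 2 cannot go below p = 0.333, so the difference between the shares is given without a p-value.

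**Figure D2:**
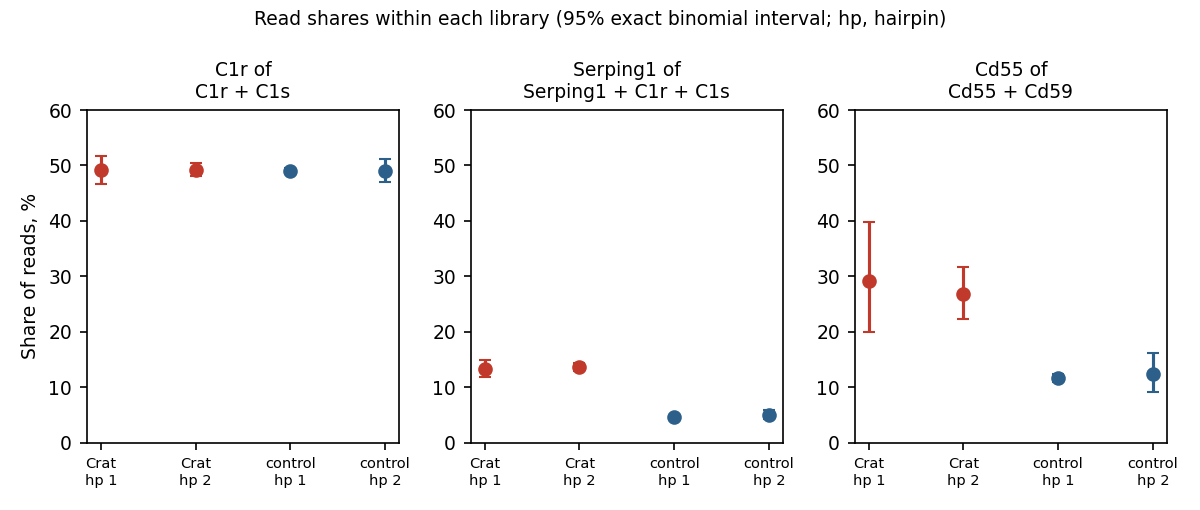
Percent of reads within each library that fell to C1r among C1r and C1s (left), to Serping1 among Serping1, C1r and C1s (middle) and to Cd55 among Cd55 and Cd59 (right), with 95% exact binomial intervals that cover counting error only; Crat hairpin libraries are red and control libraries blue. The C1r share stays between 49.0% and 49.2%, while the Serping1 and Cd55 shares are higher in both Crat hairpin libraries than in both controls.

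Next in the cascade stand C2 and C3. C2 (ENSRNOG00000051235), the protease subunit of the classical C3-cleaving enzyme, had 1679.5 and 1608 RPM in the Crat hairpin libraries, against 15.6 and 8.32 RPM in the controls. Every Crat hairpin library stood far above every control. Its log2 fold change of 7.05 ± 0.23 (SE; limma adjusted p = 3.9e-08) was the 11th highest among the 12949 genes tested. C2 was also the member whose controls differed most relative to their mean. Control replicate 1 held 370 reads of it and control replicate 2 only 11. The exact 95% Poisson intervals were 14.1 to 17.3 RPM for replicate 1 and 4.15 to 14.9 RPM for replicate 2, and they overlapped. Without control replicate 1 the log2 fold change of C2 was 7.46, and without control replicate 2 it was 6.63. C2 and Cfb lie side by side in RefSeq GRCr8, 264 bases apart on rat chromosome 20. On its other side C2 overlaps Zbtb12 in that annotation, and Zbtb12 likewise had no row. Whether reads of Cfb or Zbtb12 were counted on the C2 row was not tested.

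C3 (ENSRNOG00000046834), the protein on which all routes of activation converge, had 485 and 476 RPM in the Crat hairpin libraries, against 227 and 234 RPM in the controls. Libraries within a group differed little. They averaged 480.4 ± 6.74 RPM with the Crat hairpin and 230.5 ± 4.69 RPM with the control hairpin (SD, n = 2 each). Counting error was wider, with an exact 95% Poisson interval of 412 to 568 RPM in Crat hairpin replicate 1 (156 reads). The log2 fold change was 1.06 ± 0.08 (SE; limma adjusted p = 1.9e-05). Within a library, C2 gave 77.6% and 77.2% of the reads of C2 and C3 together in the Crat hairpin libraries, against 6.44% and 3.44% in the controls, so the rise of C2 exceeded that of C3 whatever the scaling between libraries.

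**Figure D3:**
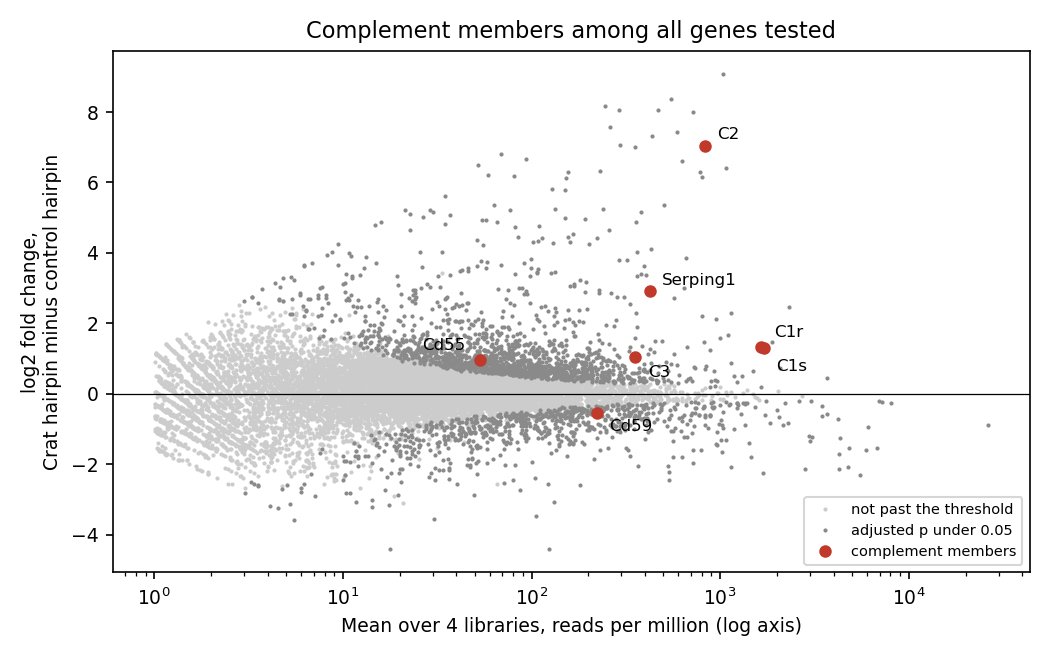
Log2 fold change of Crat hairpin minus control hairpin (vertical axis) against the mean over 4 libraries in RPM (log horizontal axis) for the 12949 genes tested, with genes past the adjusted p threshold in dark grey, the others in light grey and the 7 complement members in red. C2 lies among the highest rises at 7.05 and Serping1 at 2.92, and Cd59 lies below 0 at -0.53.

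The membrane inhibitors were the least firm of the members. Cd55 (ENSRNOG00000003927), which speeds the decay of C3-cleaving enzymes, had 80.9 and 61.0 RPM in the Crat hairpin libraries, against 37.4 and 34.0 RPM in the controls. The groups did not overlap, but the value of Crat hairpin replicate 1 rested on 26 reads, with an exact 95% Poisson interval of 52.8 to 118 RPM. Control replicate 2 held 45 reads. The log2 fold change of Cd55 was 0.96 ± 0.21 (SE; limma adjusted p = 0.011). It did not pass with DESeq2 on the recovered reads (adjusted p = 0.14), without control replicate 1 (limma adjusted p = 0.18) or without control replicate 2 (limma adjusted p = 0.089), and in the authors' deposited table, where 10.5% of identifiers pass 0.05, its adjusted p is 0.79.

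Cd59 (ENSRNOG00000042821), which stops the membrane attack complex from assembling, had 196 and 166 RPM in the Crat hairpin libraries, against 284 and 241 RPM in the controls. Both Crat hairpin libraries lay below both controls, although replicates within each group differed by more than for C3 or Serping1. The log2 fold change of Cd59 was -0.53 ± 0.12 (SE; limma adjusted p = 0.015), and without control replicate 1 it was -0.42 and did not pass (limma adjusted p = 0.33). The 95% limma interval of the Cd59 log2 fold change was -0.81 to -0.26, and that of Cd55 was 0.49 to 1.42. The authors' deposited table gives Cd59 an adjusted p of 3.8e-07. Within a library Cd55 gave 29.2% and 26.8% of the reads of Cd55 and Cd59 together in the Crat hairpin libraries, against 11.7% and 12.4% in the controls, and the exact intervals of the groups did not overlap, with a lowest bound of 20.1% in the Crat hairpin libraries and a highest bound of 16.2% in the controls.

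RefSeq windows upstream of the gene start were at hand for 3 of the members that rose, C1r, C3 and Cd55. They are shown because these members rose beside the interferon and NF-kB target lists given further on, so that any shared letters can be looked for. Each is the 250 bases before the annotated start in GRCr8, read 5′ to 3′ on the gene's strand. GRCr8 is a later assembly than the mRatBN7.2 build named for the expression values. The C1r window is chr4:159098763-159099012 on the plus strand, the C3 window chr9:2201340-2201589 on the minus strand and the Cd55 window chr13:44438102-44438351 on the minus strand.
C1r: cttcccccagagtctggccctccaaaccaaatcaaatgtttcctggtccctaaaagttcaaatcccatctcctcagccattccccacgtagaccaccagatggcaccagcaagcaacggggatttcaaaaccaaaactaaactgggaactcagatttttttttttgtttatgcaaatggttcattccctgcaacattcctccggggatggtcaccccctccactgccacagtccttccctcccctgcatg
C3: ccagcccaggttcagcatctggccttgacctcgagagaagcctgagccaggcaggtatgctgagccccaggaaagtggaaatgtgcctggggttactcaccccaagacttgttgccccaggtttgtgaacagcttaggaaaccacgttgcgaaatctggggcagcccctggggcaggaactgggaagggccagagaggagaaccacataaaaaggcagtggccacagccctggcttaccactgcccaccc
Cd55: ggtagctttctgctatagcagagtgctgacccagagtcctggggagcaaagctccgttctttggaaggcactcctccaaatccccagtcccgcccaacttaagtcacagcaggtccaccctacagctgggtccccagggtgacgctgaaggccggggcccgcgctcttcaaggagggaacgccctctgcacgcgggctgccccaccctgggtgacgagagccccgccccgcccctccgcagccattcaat
A search of the windows, each extended by 50 bases past the start, for the interferon-stimulated response element (a pair of GAAA blocks with 2 bases between them), the STAT site TTCNNNGAA and the NF-kB consensus, on both strands, found none of them in any of the 3, so no letters are in capitals. Of 33469 RefSeq windows of that length, 3.92% held the first, 8.87% the second, which is its own reverse complement, and 4.18% the third. The absence says only that these letters are not in these windows.

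Most other genes of the pathway did not pass the test. Of 52 listed by symbol, 24 had a row and 19 were tested, and 4 rose by limma, C6, C1rl, Clu and Masp1. Cd59b, listed without a row, is the RefSeq name of the member Cd59. None passed as lower by limma, while edgeR gave 5 higher and 2 lower and DESeq2 3 and 1. By unadjusted limma p under 0.05, 5 were higher and 2 lower. The share of all genes at that unadjusted threshold was not counted, so these counts cannot be set against the shares that follow. The share called by limma, 21.1%, was close to the 19% of all genes that passed in either direction (17.7% under median-of-ratios scaling, 32.7% in edgeR and 13.5% in DESeq2). The median log2 fold change of the 19 was 0.20, against 0.15 over all genes and 1.31 over the 7 members. Members and list were both chosen with earlier results of these data known, so the gap between them is only a description.

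Among initiators, C1rl, a relative of C1r encoded beside it, had 15.6 and 29.6 RPM in the Crat hairpin libraries, against 7.09 and 5.30 RPM in the controls (log2 fold change 1.66; limma adjusted p = 0.023). Masp1, a protease of the lectin pathway, had 34.2 and 29.6 RPM in the Crat hairpin libraries, against 14.4 and 10.6 RPM in the controls (log2 fold change 1.30; limma adjusted p = 0.015). Both rested on few reads in Crat hairpin replicate 1, 5 for C1rl and 11 for Masp1, and neither passed without either control library. With DESeq2 on the recovered reads Masp1 did not pass (adjusted p = 0.16) and C1rl did (adjusted p = 0.046). The authors' deposited table gives an adjusted p of 0.071 for C1rl and 0.075 for Masp1. Colec11, a lectin that recognises sugars, had a log2 fold change of -0.11 and did not pass (limma adjusted p = 0.39). It passed as lower in 2 of 17 alternatives, at -0.30 under median-of-ratios scaling (limma adjusted p = 0.027) and -0.31 under TMM scaling (limma adjusted p = 0.031). Masp2 stood at 1.52 RPM or less in 3 libraries and at 3.11 RPM, a single read, in Crat hairpin replicate 1. Properdin, Cfp, which stabilises the alternative C3-cleaving enzyme, had 1 and 7 reads in the Crat hairpin libraries and a log2 fold change of -0.18 (limma adjusted p = 0.88).

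Of the terminal components, which form the membrane attack complex, C6 had 40.4 and 30.2 RPM in the Crat hairpin libraries, against 6.33 and 4.54 RPM in the controls. Its log2 fold change was 2.50 ± 0.36 (SE; limma adjusted p = 0.001). C7, which joins C6 in that complex, had 258 and 244 RPM in the Crat hairpin libraries, against 332 and 292 RPM in the controls, a log2 fold change of -0.31 that did not pass by limma (adjusted p = 0.058). It passed as lower in 9 of 17 alternatives, and the authors' deposited table gives it an adjusted p of 0.0067. C8g had a log2 fold change of 0.08.

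Clu encodes clusterin, a secreted chaperone that also keeps the attack complex from inserting into membranes. It had 2830 and 2716 RPM in the Crat hairpin libraries, against 985 and 1004 RPM in the controls, and rose by 1.48 ± 0.05 on the log2 scale (SE; limma adjusted p = 4.5e-08). Cpn1, a subunit of the carboxypeptidase that trims C3a and C5a, had 1 and 2 reads in the Crat hairpin libraries and did not pass (log2 fold change 0.44; limma adjusted p = 0.75). Cr1l, a rodent membrane regulator of C3, had 68.4 and 85.6 RPM in the Crat hairpin libraries, against 101 and 96.1 RPM in the controls, and did not pass (limma adjusted p = 0.17). No receptor among 6 tested passed by limma, and edgeR called 1 higher and 1 lower and DESeq2 none. By limma 2 had an unadjusted p under 0.05, a threshold for which the share of all genes was not counted. C5ar2, a receptor for C5a, had a log2 fold change of 1.03 (limma adjusted p = 0.094), and Cd93 -0.50 (limma adjusted p = 0.38).

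**Figure D4:**
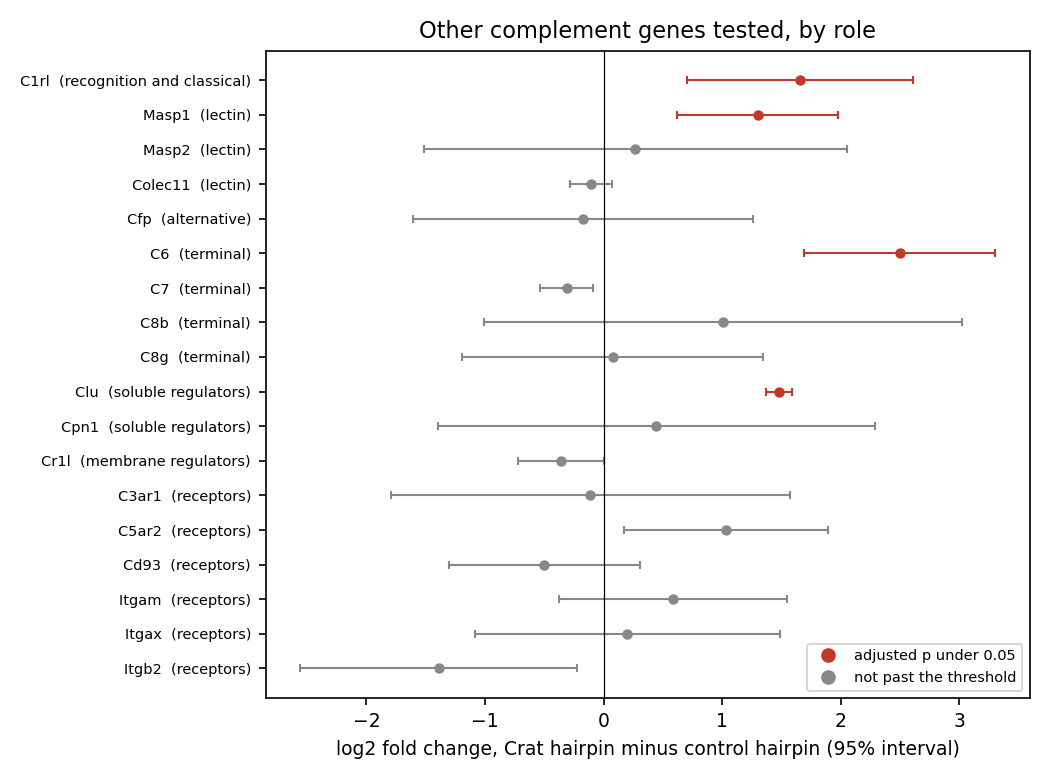
Log2 fold change of Crat hairpin minus control hairpin with its 95% limma interval for other complement genes tested, listed by role from initiators at the top to receptors at the bottom, with genes past the adjusted p threshold in red. C6, C1rl, Clu and Masp1 are red at 2.50, 1.66, 1.48 and 1.30, and many grey intervals are wide because few reads lie behind them.

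The genes whose values over the 4 libraries were most like those of each member were sought by Euclidean distance between log2(RPM + 1) values after subtracting the control mean. For C2 they were Ccl5, Mx1 and Gbp5, a chemokine and a pair of antiviral GTPases, at distances of 0.37, 0.58 and 0.82. In the controls Ccl5 stood at 0.507 and 0 RPM and Mx1 at 6.80 and 1.51 RPM, so their distances depend on the 1 RPM added. For Serping1 they were Ifit2, Sp100 and Parp10 at 0.12 to 0.13. C1r and C1s were each other's closest gene at 0.02, followed for both by Ahr and N4bp1. The closest to C3 was Slc44a1 at 0.05, to Cd55 Pik3c2a at 0.05 and to Cd59 Mob1a at 0.03. With only 4 libraries many genes share so simple a pattern, and the distances are a description.

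Lists of inducible genes are set beside the members as description, since they were chosen with earlier results of these data known. All 19 interferon-stimulated genes tested were higher by limma, edgeR and DESeq2, where 12.6%, 22.6% and 6.27% of all genes were higher, with a median log2 fold change of 5.60; Irf7, a transcription factor of the interferon response, had 6.41. All 14 acute phase and NF-kB or IL-6 target genes tested were higher by limma and edgeR, and 13 of them by DESeq2, with a median of 1.66, among them Ccl2 at 1.68 and Icam1 at 0.83. The member median of 1.31 lay below both lists; C2 exceeded the interferon median and Serping1 lay between the medians.

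Markers of the cells in the culture moved as well. Of the 9 cardiomyocyte markers tested, 8 fell by limma, edgeR and DESeq2, and their summed level was 12114 and 12517 RPM in the Crat hairpin libraries, against 30244 and 30797 RPM in the controls. Fibroblast markers summed to 24064 and 24664 RPM in the Crat hairpin libraries, against 31488 and 32955 RPM in the controls, with 2 of 10 higher and 6 lower by each of the 3 tools. Smooth muscle and pericyte markers summed to 1900.4 and 1811 RPM in the Crat hairpin libraries, against 5225 and 5334 RPM in the controls, with 6 of 8 lower by each tool and 1 higher by limma and edgeR and 0 by DESeq2. In such bulk samples fewer cells of a type and less RNA per cell cannot be told apart. Macrophage and other leukocyte markers summed to 77.8 and 72.1 RPM in the Crat hairpin libraries, against 63.3 and 62.0 RPM in the controls. None of the 10 tested passed by limma (0 with an unadjusted p under 0.05), edgeR (1) or DESeq2 (0), and their median log2 fold change was 0.05. Of the 11 leukocyte markers with a row, 2 had no read in Crat hairpin replicate 1, where a single read was worth 3.11 RPM. Endothelial markers summed to 68.4 and 64.1 RPM in the Crat hairpin libraries, against 54.8 and 66.6 RPM in the controls. By each tool 1 of 5 was lower, and 1 was higher by limma and edgeR and 0 by DESeq2. Of the 6 endothelial markers with a row, 2 had no read in that same replicate. Of the hepatocyte markers, Ttr alone had a row, with 1 and 3 reads in the Crat hairpin libraries. The 13 genes encoded in the mitochondrial genome fell by each of the 3 tools, and summed to 36362 and 36195 RPM in the Crat hairpin libraries, against 94723 and 90799 RPM in the controls. The part of these cell types and of the mitochondrial transcripts in the complement values was not tested.

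**Figure D5:**
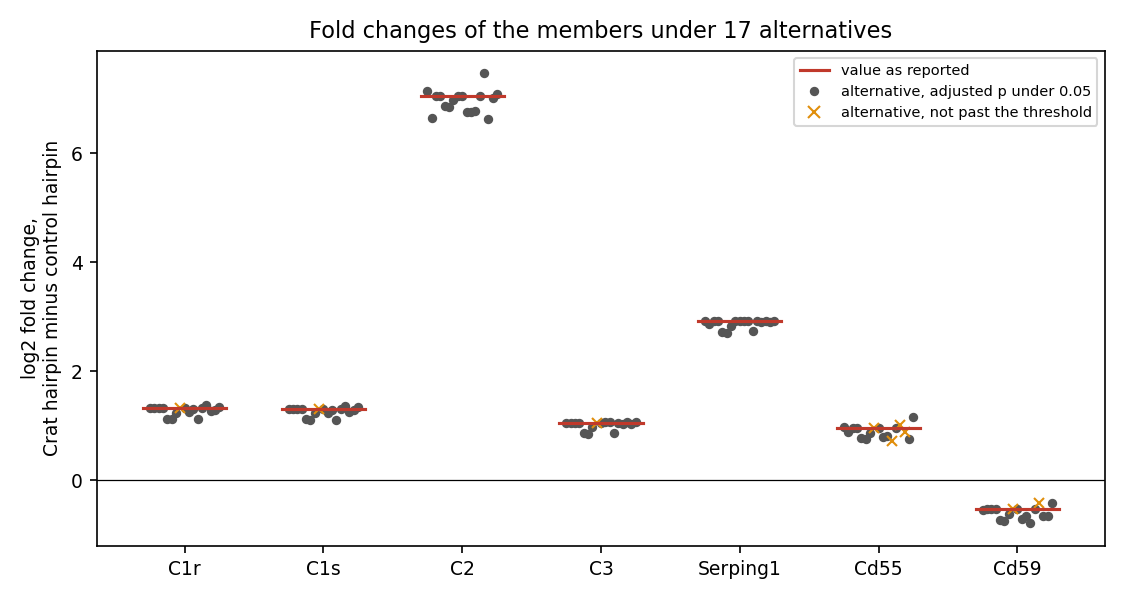
Log2 fold change of Crat hairpin minus control hairpin for each complement member as reported (red bar) and under 17 alternatives (grey dots where the adjusted p passed, orange crosses where it did not). No dot or cross lies on the other side of 0 from its bar, C2 and Serping1 have no cross, and Cd55 has 4.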

How the data were processed

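The members and gene lists were chosen with earlier results of these data known. The authors deposited 1 table with library values, group means and p-values, raw and adjusted; per the submitters' processing notes kallisto and DESeq2 (versions not given) and build mRatBN7.2 were used. Per the file headers the libraries' values are TPM, but 100% of values in each library were whole multiples of a constant step (tolerance 0.02 of a read) that did not vary with the gene, so the deposited signal is RPM, without division by length; the reads are the values over that step. RPM took the test planned for TPM. The 14318 rows hold 14137 identifiers, each used once. Of these, 1551 carry no symbol, so a gene said to have no row may still be present under such an identifier.

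Genes averaging 1 RPM or more were fitted as log2(RPM + 1) with limma 3.58.1 (R 4.3.3, variance trend, Benjamini-Hochberg, threshold 0.05, two-sided). Fold changes on this scale understate those of low genes. Alternatives used edgeR 4.0.16 and DESeq2 1.42.0 on the recovered reads. All 7 members, other complement genes past the threshold, up to 2 others per role by mean level, the 3 most alike genes per member and up to 3 genes per comparison list could be named; C1qa, C1qb and C1qc had no row, and 1 gene that the rule names is not reported here. Promoter windows come from RefSeq, GRCr8, and matched 3 of 8 members by symbol. In simulated reads for this comparison (12684 genes tested) the test recovered 42 of 66 genes set to a 4-fold change, 18 of 67 set to 2-fold and 5 of 67 set to 1.5-fold, and called none of the unchanged genes.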

Additional observations from a re-analysis of the deposited data

How the results depend on the processing

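Across 17 alternatives no member and not Crat changed direction. The count of 6 higher members ran from 5 to 6 with a library left out and was 2 without the variance trend, where C2 and Serping1 passed and C1r and C1s (adjusted p = 0.052 each) and C3 (0.066) did not; 1 member was lower, 0 without the variance trend and 0 to 1 with a library left out. Other complement genes gave 4 higher, 2 without the trend and 2 to 5 with a library left out, and 0 lower, against 3 under median-of-ratios or TMM scaling, 1 with totals that leave out mitochondrial genes, 2 with voom weights, 2 in edgeR, 1 in DESeq2, 1 with the replicate block and 0 to 4 with a library left out. Over all genes 1631 were higher and 823 lower, so 66.5% of calls were rises, against 45.4% under median-of-ratios scaling (1044 higher, 1254 lower) and 1005 and 1281 under TMM. The counts were 266 and 79 without the trend, 3476 and 1250 with voom weights, 2923 and 1309 in edgeR and 749 higher in DESeq2, and with a library left out they ran from 425 to 3632 higher and from 176 to 2620 lower. The cause was not tested. Crat passed throughout, with a log2 fold change of -3.05 to -2.53. The labels do not say whether same-numbered libraries belong together. Their deviations from the group means correlated at 0.006 over 12949 genes. With 2 libraries per group and few reads in Crat hairpin replicate 1, that value cannot exclude a shared batch. With the replicate as a block 1701 genes were higher and 895 lower, and the member counts were 6 and 1. Depth limits genes of few reads, above all in Crat hairpin replicate 1.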

Other observations

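C2 stands in the class III region of the major histocompatibility complex, and other genes listed for that region had smaller fold changes. Of 8 tested, 3 were higher by limma and none lower, 5 were higher in edgeR and none in DESeq2, and the median log2 fold change was 0.40, against 0.15 over all genes. Of all genes, 12.6% were higher by limma, 22.6% in edgeR and 6.27% in DESeq2. Atf6b had 171 and 175 RPM in the Crat hairpin libraries, against 123 and 132 RPM in the controls. Ehmt2 had 134 and 105 RPM in the Crat hairpin libraries, against 82.7 and 90.8 RPM in the controls, and did not pass (limma adjusted p = 0.085). The 7 complement members together took 0.808% and 0.775% of all reads in the Crat hairpin libraries, against 0.265% and 0.246% in the controls.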
